A study of Mus musculus with 24 samples.

Results

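The genes described here encode the cytosolic chaperonin CCT and prefoldin, the cochaperone that delivers clients to it. The 10 members were 8 CCT subunits (Tcp1, Cct2, Cct3, Cct4, Cct5, Cct6a, Cct7 and Cct8) and 2 prefoldin subunits (Vbp1 and Pfdn2), out of 27670 genes or other features on the array. They were found by gene name and transcript accession and were measured by 15 probes. Of these, 14 probes passed the filter on dim signal, and all 10 members were among the 13488 genes tested.

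CCT is a double-ring, ATP-driven folding machine in the cytosol. Each ring is built from different subunits, each encoded by a gene of its own, and actin and tubulin are its best known clients. Prefoldin catches unfinished actin and tubulin chains as they leave the ribosome and hands them to CCT. Fibroblasts need both complexes to build their cytoskeleton.

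The cells studied were fibroblasts cultured from mouse embryos of day 13.5, from C57BL6 crosses in which both parents were CHIP(+/-). Stub1 encodes CHIP, which binds HSP70 and HSP90 and attaches ubiquitin to their clients. Wildtype cultures, CHIP(+/+), and CHIP null cultures were kept at 37 °C as controls or heat shocked at 43 °C, and β-mercaptoethanol was in the medium of all of them. Each genotype and treatment was labelled 30 or 240 min, which gives 8 groups of 3 arrays, 24 arrays in all. The labels call the 3 arrays biological replicates and do not say whether they came from separate embryos, so the p-values measure only the spread between these samples. Cy5-labelled sample RNA was hybridised against a common Cy3-labelled mouse reference RNA, and a level is given below as the log2 ratio of sample to reference. This ratio compares samples for a gene and does not rank genes against each other.

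Some facts of the whole series bear on the values. All 24 columns of the authors' deposited table matched scanner files of the opposite time label (lowest correlation 0.9975, against at most 0.9004 with the same label). The times below are therefore the labels of the scanner files, and which set of arrays is the earlier is not settled. The Stub1 ratio was -0.24 to -0.01 on wildtype arrays and -2.43 to -1.72 on CHIP null arrays, which separates the genotypes as labelled. Of 12 fibroblast markers, 10 to 12 were above background on each array, and of 13 macrophage markers 4 to 12, with Ptprc above background on none. The share of probes above background ran from 32.9% to 41.7% on arrays labelled 30 min and from 44.1% to 48.6% on those labelled 240 min. The arrays lay on 6 slides, 3 for each time label, so the time label and the slides cannot be told apart.

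Upstream sequence was available from RefSeq (GRCm38.p6) for 9 members, as the 250 bases before each of 12 annotated starts. Heat shock factor binds alternating GAA and TTC units, so the windows were searched for the pairs GAANNTTC and TTCNNGAA, each of which reads the same on both strands. A pair was present in 2 of the 12 windows, that of Cct5 and that of an alternative start of Cct2. Among 32851 promoters of this length, 12.8% held a pair (GAANNTTC in 6.69%, TTCNNGAA in 7.17%). No member window held 3 alternating units in a row, which 0.466% of all promoters did. The windows shown are that of Cct5, that of Vbp1, whose heat difference was the largest of the members, and that of Hspa1a. The last is the stress-inducible HSP70, which rose with heat on arrays labelled 240 min. Capitals mark the pair. The Cct5 window is chr15:31601847-31602096 on the minus strand, and the last base of its pair lies 27 bases before the start. The Vbp1 window is chrX:75514047-75514296 on the plus strand, with no pair. The Hspa1a window is chr17:34972157-34972406 on the minus strand, and the last base of its pair lies 97 bases before the start. Like the member windows, that of Hspa1a held no 3 alternating units in a row. A window of Hspd1 and that of Hspe1, genes of the mitochondrial chaperonin, did hold them.
Cct5: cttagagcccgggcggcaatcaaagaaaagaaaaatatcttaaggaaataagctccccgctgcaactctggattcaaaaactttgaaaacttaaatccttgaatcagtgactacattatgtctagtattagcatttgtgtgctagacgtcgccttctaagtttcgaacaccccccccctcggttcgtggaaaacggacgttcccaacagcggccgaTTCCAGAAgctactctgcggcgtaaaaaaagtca
Vbp1: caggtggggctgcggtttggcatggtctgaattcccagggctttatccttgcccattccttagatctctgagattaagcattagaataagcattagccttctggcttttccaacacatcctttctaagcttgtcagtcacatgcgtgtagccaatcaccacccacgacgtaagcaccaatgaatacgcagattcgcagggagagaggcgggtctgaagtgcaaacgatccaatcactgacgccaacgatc
Hspa1a: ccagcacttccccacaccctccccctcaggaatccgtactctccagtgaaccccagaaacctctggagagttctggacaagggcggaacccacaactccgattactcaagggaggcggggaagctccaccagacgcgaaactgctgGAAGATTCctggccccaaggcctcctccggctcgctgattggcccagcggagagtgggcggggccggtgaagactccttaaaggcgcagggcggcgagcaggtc
The box CCAAT, searched on both strands, occurred 3 times in the Vbp1 window and 0 times in that of Cct5, and 33.8% of all promoters held it. These matches describe letters and are no measure of binding.

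Heat shock was followed by lower ratios of Vbp1, Pfdn2 and several CCT subunits on the arrays labelled 30 min, while none of the 10 members passed the test on those labelled 240 min. Vbp1 showed the largest difference, a 1.4-fold lower ratio in heated CHIP null cells. In the same cells Pfdn2, Cct8, Cct6a and Cct4 fell by between 0.23 and 0.29 on the log2 scale and Cct7 rose by 0.16. In wildtype cells Vbp1, Cct4 and Tcp1 fell by between 0.26 and 0.29. In RNA from whole cultures, fewer cells of a type and less RNA per cell cannot be told apart.

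Counted over all members, 3 of 10 fell and 0 rose in wildtype cells labelled 30 min, where 7.79% of all genes tested were lower and 6.77% higher. In CHIP null cells labelled 30 min, 5 of 10 fell and 1 rose, where 12.6% of all genes were lower and 22.6% higher. The members' median log2 difference was -0.11 in wildtype and -0.15 in CHIP null cells, against 0.01 and 0.03 over all genes tested. All 3 wildtype calls were lost under 3 alternatives. After median centring the values were larger, -0.42 for Tcp1, -0.44 for Cct4 and -0.49 for Vbp1, with adjusted p from 0.072 to 0.11. With the mean of a gene's probes they were smaller, -0.07, -0.17 and -0.20, and with the slide as a block -0.28, -0.32 and -0.22. That block also took the wildtype calls over all genes from 1964 to 455. Calls are at an adjusted p under 0.05 (limma, Benjamini-Hochberg over 13488 genes). Higher calls made up 46.5% of all wildtype and 64.2% of all CHIP null calls after loess. They made up 39.3% and 46% with the Feature Extraction log ratio, and 4.2% and 0.799% after median centring, which shifted the median of all genes to -0.09 and -0.18.

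**Figure D1:**
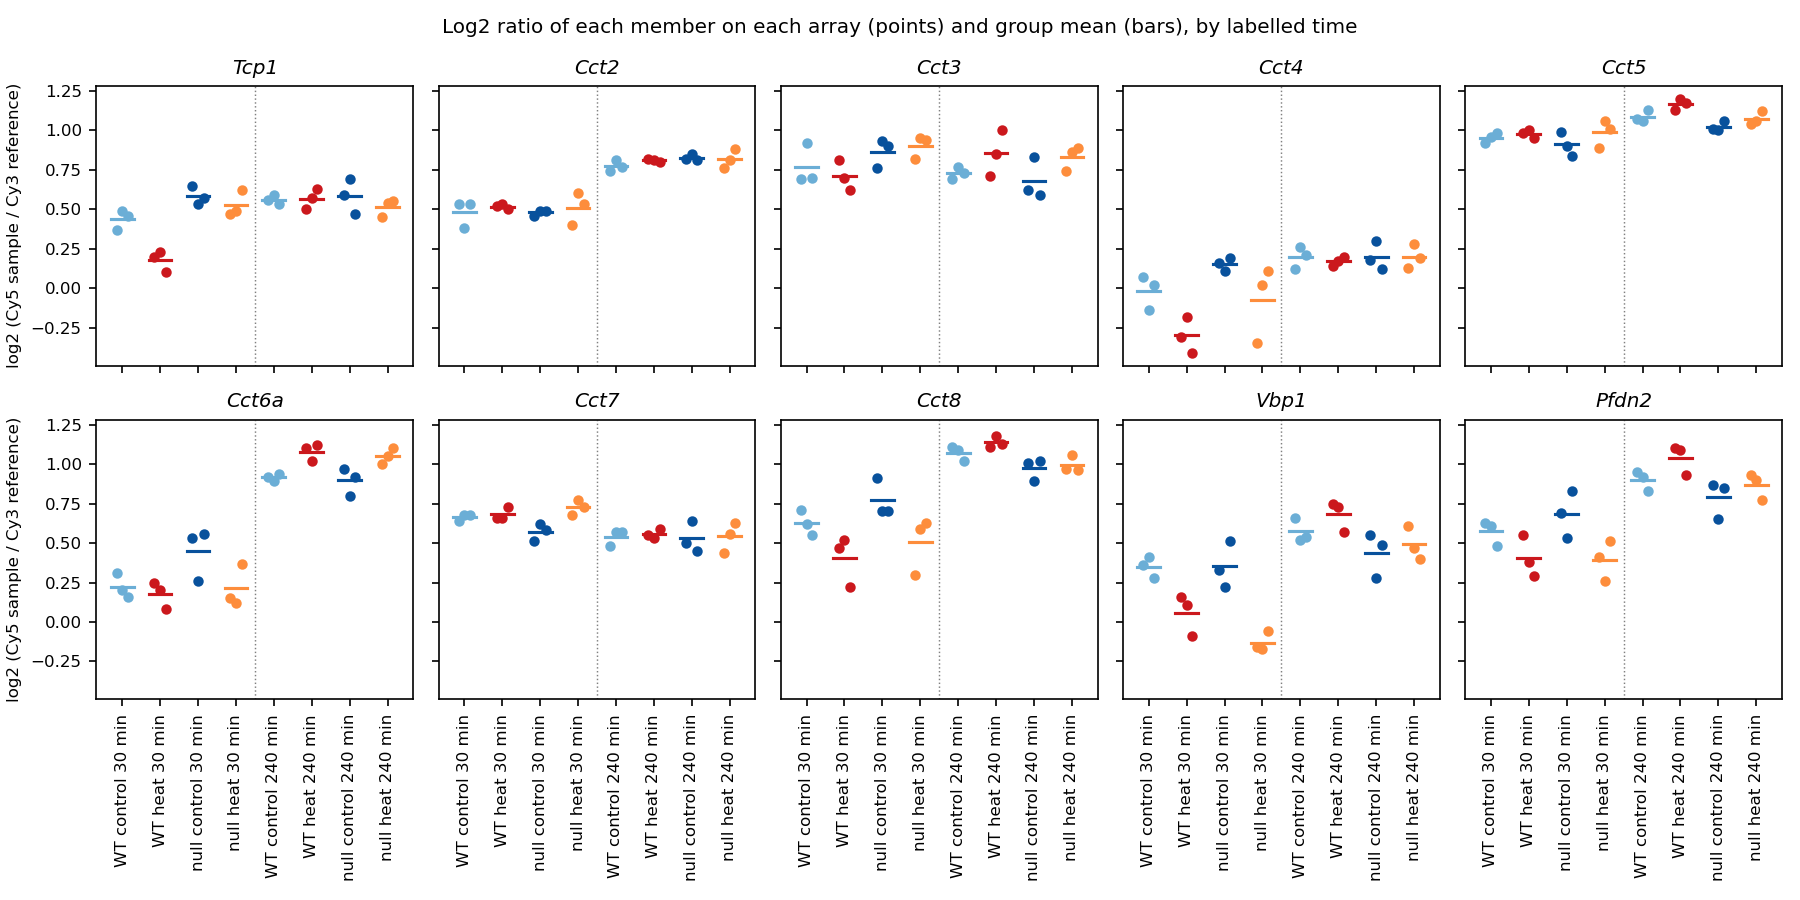
Log2 ratio of sample to reference (vertical axis) for the probe that represents each member, with 1 point per array and a bar at the mean of each of the 8 groups (horizontal axis); a dotted line separates the labelled times. Vbp1 lies between -0.17 and 0.16 on the 6 heated arrays labelled 30 min and between 0.22 and 0.66 on the 12 control arrays.

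Vbp1 encodes the prefoldin subunit that also binds the von Hippel-Lindau protein. Its log2 ratio was 0.36, 0.41 and 0.28 on the wildtype controls labelled 30 min and 0.16, 0.11 and -0.09 on the heated arrays. The CHIP null values were 0.33, 0.22 and 0.51 on controls and -0.16, -0.17 and -0.06 on heated arrays. All 3 heated arrays lay below all 3 controls in both genotypes. The difference was -0.29 ± 0.08 (SE) in wildtype (adjusted p = 0.015) and -0.49 ± 0.08 in CHIP null cells (adjusted p = 7.3e-05). The CHIP null fall passed the test under each of the 7 alternative settings with a test and without each of the 6 arrays in turn, where it ran from -0.55 to -0.41. Among the settings, the slide block set only CHIP null heated replicate 1 against the CHIP null controls. The other heated arrays of that genotype shared no slide with these controls. The wildtype fall was -0.22 with the slide as a block (adjusted p = 0.34). It also lost the call without wildtype control replicate 1 (-0.29), control replicate 2 (-0.26) or heated replicate 3 (-0.22). A dimmer probe of Vbp1 gave -0.24 ± 0.08 in CHIP null cells (adjusted p = 0.024) and -0.10 ± 0.08 in wildtype cells (adjusted p = 0.47).

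Pfdn2 encodes another prefoldin subunit. On arrays labelled 30 min its log2 ratio was 0.63, 0.61 and 0.48 in wildtype controls and 0.55, 0.38 and 0.29 in heated wildtype cells, and the groups overlapped. The CHIP null controls read 0.69, 0.53 and 0.83 and the heated arrays 0.41, 0.26 and 0.51, all below the controls. Only the CHIP null difference, -0.29 ± 0.08, passed the test (adjusted p = 0.0072), and the wildtype value was -0.17 ± 0.08 (adjusted p = 0.17). With the Feature Extraction log ratio the CHIP null value was -0.19 (adjusted p = 0.12), and with the slide as a block it was -0.27 (adjusted p = 0.10). It was -0.22 without CHIP null control replicate 3 or heated replicate 2 and did not pass in either case.

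Tcp1 encodes the alpha subunit of CCT. Its log2 ratio was 0.37, 0.49 and 0.46 on wildtype controls labelled 30 min and 0.20, 0.23 and 0.10 on the heated arrays, with no overlap. The CHIP null controls read 0.65, 0.53 and 0.57 and the heated arrays 0.47, 0.49 and 0.62, with overlap. The wildtype difference was -0.26 ± 0.06 (adjusted p = 0.0057) and the CHIP null difference -0.06 ± 0.06 (adjusted p = 0.46). The wildtype fall passed without each of the 6 arrays in turn, but with the slide as a block it was -0.28 at an adjusted p of 0.062. A dimmer Tcp1 probe, mapped to another transcript accession, read 0.12 ± 0.08 in wildtype and 0.10 ± 0.08 in CHIP null cells, on the other side of 0.

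Cct4 encodes the delta subunit. The log2 ratio was 0.07, -0.14 and 0.02 on wildtype controls labelled 30 min and -0.31, -0.18 and -0.41 on heated arrays, with no overlap. The CHIP null controls read 0.16, 0.11 and 0.19, and the heated arrays -0.35, 0.02 and 0.11. The lowest of these stood apart from the other 2, which lay near the controls. The differences were -0.28 ± 0.08 in wildtype (adjusted p = 0.026) and -0.23 ± 0.08 in CHIP null cells (adjusted p = 0.037). Without CHIP null heated replicate 1 the latter was -0.09 (adjusted p = 0.38). With the slide as a block it was -0.50, but that setting compares the same array alone with the controls of its own slide. The other 2 heated arrays do not enter that value, so it is no separate check of the fall. The CHIP null call was also lost without control replicate 1 (-0.23) or 3 (-0.21), with no filter on dim probes (-0.23, adjusted p = 0.056) and with the mean of the gene's probes (-0.17, adjusted p = 0.052). The wildtype call was lost with the slide as a block (-0.32, adjusted p = 0.069) and without control replicate 1 (-0.24) or 3 (-0.26) or heated replicate 1 (-0.28) or 3 (-0.23). The other Cct4 probe, above background on 12 of 24 arrays, gave -0.06 and -0.11 and passed in neither genotype.

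Cct8 encodes the theta subunit. On arrays labelled 30 min it read 0.71, 0.62 and 0.55 in wildtype controls and 0.47, 0.52 and 0.22 in heated wildtype cells. Its CHIP null values were 0.91, 0.70 and 0.70 on controls and 0.30, 0.59 and 0.63 on heated arrays. Neither genotype showed overlap between heated and control arrays. The CHIP null difference was -0.27 ± 0.08 (adjusted p = 0.010) and the wildtype one -0.23 ± 0.08, just outside the threshold (adjusted p = 0.055). The CHIP null value was -0.17 without heated replicate 1 (adjusted p = 0.10) and -0.20 without control replicate 1 (adjusted p = 0.084).

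Cct6a encodes the zeta subunit in its widely expressed form. Its CHIP null controls labelled 30 min read 0.53, 0.26 and 0.56 and the heated arrays 0.15, 0.12 and 0.37. The groups overlapped because 1 control lay below 1 heated array. The difference was -0.24 ± 0.07 (adjusted p = 0.015), and it lost the call without CHIP null control replicate 1 (-0.20) or 3 (-0.18) or heated replicate 1 (-0.21) or 2 (-0.19). It did not pass with the slide as a block (-0.30, adjusted p = 0.055), a normexp offset of 10 (-0.23, adjusted p = 0.064) or the Feature Extraction log ratio (-0.20, adjusted p = 0.11). In wildtype cells, with controls at 0.31, 0.20 and 0.16 and heated arrays at 0.25, 0.20 and 0.08, the difference was -0.05 ± 0.07 (adjusted p = 0.74).

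Cct7, the eta subunit, was the member that rose. It read 0.51, 0.62 and 0.58 on CHIP null controls labelled 30 min and 0.68, 0.77 and 0.73 on heated arrays, with no overlap. The difference was 0.16 ± 0.06 (adjusted p = 0.033). It was 0.03 with a normexp offset of 10, -0.01 with the Feature Extraction log ratio and -0.21 after median centring, so its direction turned with the normalization. The call was also lost with the slide as a block (0.12) and without control replicate 1 (0.13) or 3 (0.17) or heated replicate 2 (0.14) or 3 (0.16). In wildtype cells Cct7 differed by 0.02 ± 0.06 (adjusted p = 0.89).

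Cct2, Cct5 and Cct3, the beta, epsilon and gamma subunits, differed by between -0.06 and 0.07 in both genotypes at this label, and none passed the test. Their 95% intervals reached from -0.22 to 0.20 at the widest, those of Cct3. The direction of Cct2 in CHIP null cells turned with the normalization, to -0.19 with the Feature Extraction log ratio (adjusted p = 0.014) and -0.40 after median centring (adjusted p = 0.027). After median centring Cct3 and Cct5 read -0.37 and -0.34 there, and 9 of 10 members passed the test as lower. Under that setting 5212 of all 13488 genes tested were lower too, and the median of all genes was -0.18.

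**Figure D2:**
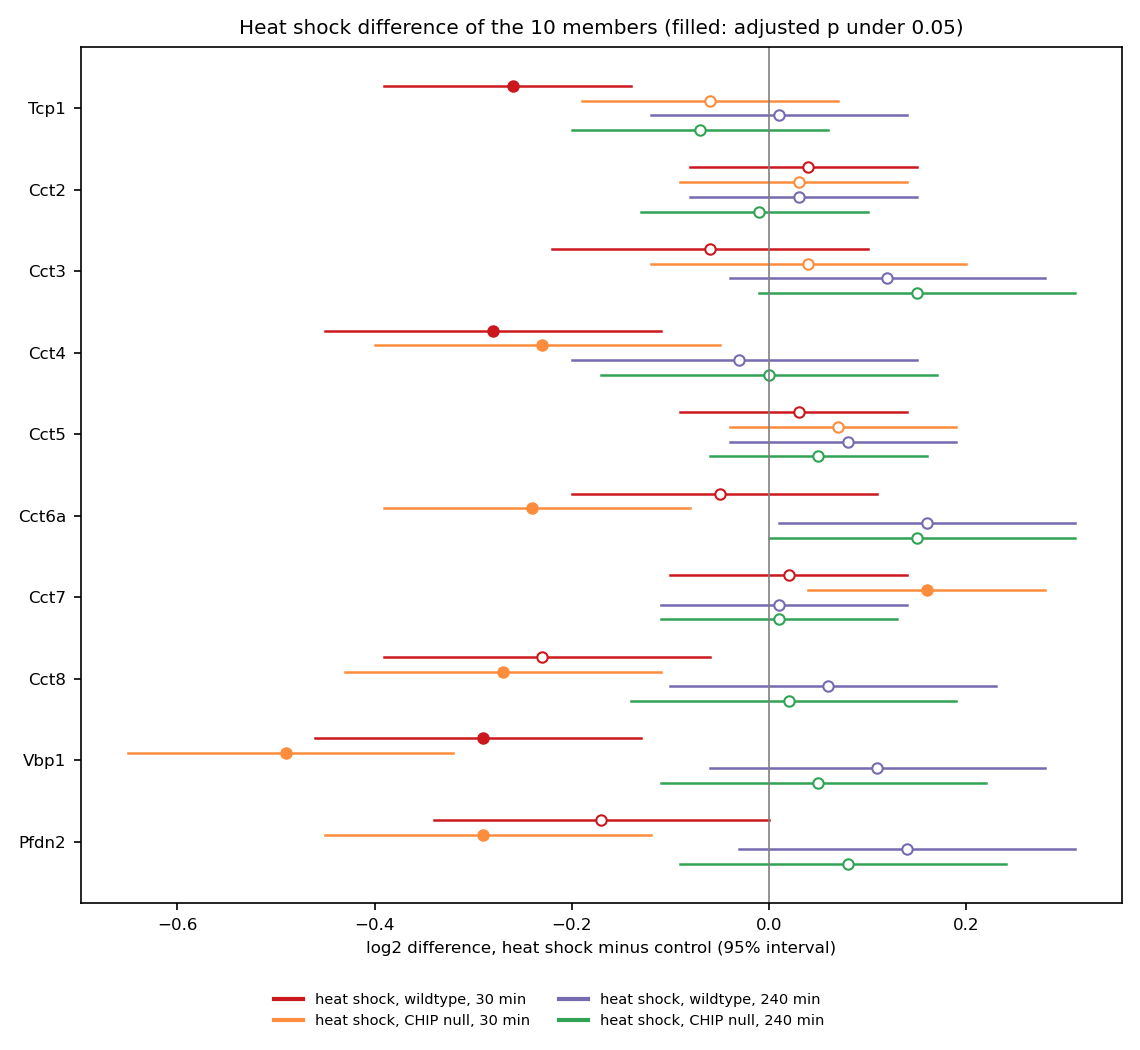
Log2 difference of heated minus control arrays (horizontal axis) with its 95% interval for the 10 members (vertical axis) in the 4 heat comparisons, coloured by genotype and labelled time; filled points have an adjusted p under 0.05. The filled points are all from arrays labelled 30 min, and Cct7 in CHIP null cells, at 0.16, is the one to the right of 0.

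The members without a fall included those of the brightest probes. The mean log2 brightness of both channels over 24 arrays was 11.75 for Cct2, 11.54 for Cct5 and 11.44 for Cct7, and between 7.50 and 10.25 for the other 7 members. Cct6a and Cct3, at a brightness of 7.50 and 8.32, differed by -0.05 and -0.06 in wildtype cells. With the Feature Extraction log ratio all 10 members were below 0 in wildtype cells and 9 of 10 in CHIP null cells. The part of brightness in these differences was not tested. The authors' deposited table holds the same Feature Extraction log ratio on another scale, less the controls in the heated columns. Converted to log2, the columns that match the CHIP null arrays labelled 30 min gave -0.52 for Vbp1 and -0.01 for Cct7. Cct4 and Cct8 both read -0.29 there.

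**Figure D3:**
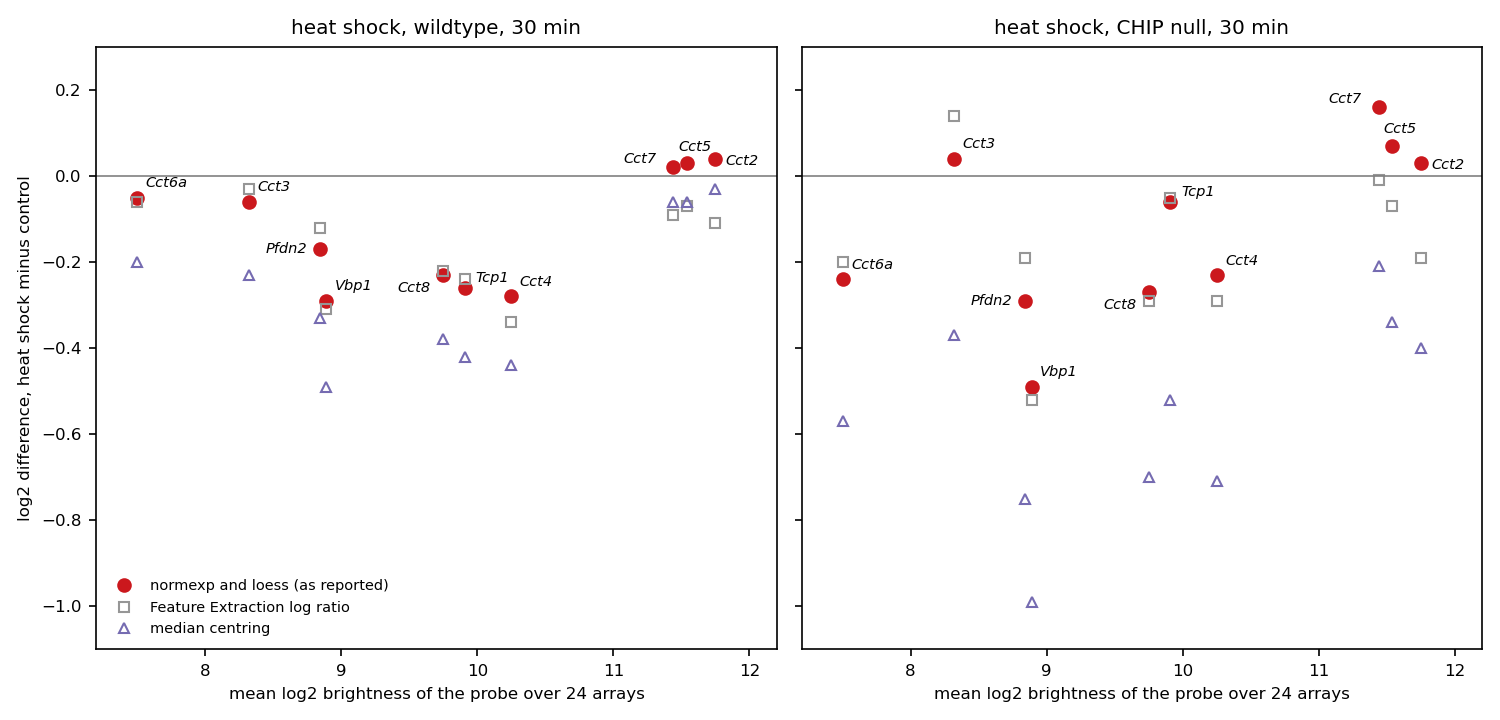
Log2 difference of heated minus control arrays labelled 30 min (vertical axis) against the mean log2 brightness of each member's probe (horizontal axis), for wildtype (left) and CHIP null cells (right); circles are the reported values, squares the Feature Extraction log ratio and triangles median centring. Cct7, Cct5 and Cct2, at a brightness of 11.44 to 11.75, lie above 0 as reported and below 0 under both alternatives.

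Marker lists of other cell types and of cell division moved with heat at the same label. In wildtype cells 8 of 12 tested macrophage markers fell with heat. The mean log2 ratio of all 13 on the array was -0.49 to -0.45 on controls and -1.04 to -0.91 on heated arrays. Of the same 12 markers in CHIP null cells, 6 rose and 1 fell. The mean of all 13 there was -1.31 to -1.20 on controls and -1.22 to -1.14 on heated arrays. Of 6 proliferation genes 3 fell in each genotype, with a mean of 0.26 to 0.40 against 0.10 to 0.14 in wildtype and 0.84 to 0.92 against 0.67 to 0.73 in CHIP null cells. The macrophage count in CHIP null cells was 0 higher and 2 lower after median centring and 0 higher and 4 lower with the Feature Extraction log ratio. The proliferation count there was 0 higher and 6 lower after median centring and 1 higher and 1 lower with the Feature Extraction log ratio. Of the other lists in CHIP null cells, 6 of 12 fibroblast markers rose and 1 fell, and 3 of 5 epithelial, 3 of 5 skeletal muscle, 2 of 5 neural and 1 of 2 endothelial markers rose. After median centring 0 markers of these 5 lists passed as higher. In wildtype cells 1 of 12 fibroblast markers fell, 1 neural and 1 endothelial marker rose, and 0 epithelial or skeletal muscle markers changed (limma; 1 and 0 at an unadjusted p under 0.05). Over all genes 22.6% were higher and 12.6% lower in CHIP null cells at this label, and 6.77% and 7.79% in wildtype cells. At 240 min, 5 of 12 macrophage markers rose in wildtype and 9 in CHIP null cells, and 0 fell. After median centring 0 rose there, and with the Feature Extraction log ratio 0 and 1 did. Of 6 proliferation genes, 1 rose and 2 fell in wildtype and 1 fell in CHIP null cells at 240 min. The part of these lists in the members' falls was not tested.

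On arrays labelled 240 min no member passed the test for heat. In wildtype cells 0 of 10 passed the test in either direction (limma; 1 at an unadjusted p under 0.05), where 18.8% of all genes were higher and 12.7% lower. The CHIP null count was also 0 of 10 (1 at an unadjusted p under 0.05), where 24.5% were higher and 14.5% lower. The 95% intervals of all these differences lay between -0.20 and 0.31 on the log2 scale, so changes of that size are not excluded by the data. Vbp1 read 0.66, 0.52 and 0.54 on wildtype controls and 0.75, 0.73 and 0.57 on heated arrays, and 0.55, 0.28 and 0.49 against 0.61, 0.47 and 0.40 in CHIP null cells, with overlap in both. Pfdn2 ran from 0.65 to 0.95 on the controls of both genotypes and from 0.77 to 1.10 on the heated arrays. Cct6a gave the largest values, 0.16 ± 0.07 in wildtype (adjusted p = 0.096) and 0.15 ± 0.07 in CHIP null cells (adjusted p = 0.10). It read 0.92, 0.89 and 0.94 on wildtype controls and 1.10, 1.02 and 1.12 on heated arrays, with no overlap. Higher calls were 59.6% and 62.7% of all calls after loess, 44% and 41.7% with the Feature Extraction log ratio, and 4.32% and 0.405% after median centring, which put the median of all genes at -0.03 and -0.18. The members' median was 0.07 in wildtype and 0.04 in CHIP null cells, against 0.06 and 0.07 over all genes.

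Hspa1a, the inducible HSP70, rose with heat on those arrays. It read -0.93 to -0.70 on the 6 controls labelled 240 min and 0.78 to 4.04 on the 5 heated arrays with a value, with 1 CHIP null spot left out as an outlier. The difference was 3.27 ± 0.38 in wildtype cells (adjusted p = 8.6e-07) and 2.24 ± 0.42 in CHIP null cells (adjusted p = 0.00027). Its near-identical copy Hspa1b could share its signal. On arrays labelled 30 min Hspa1a differed by 0.38 and 0.46 and did not pass the test in either genotype. Of 7 heat shock genes tested at that label, 3 fell and 0 rose in wildtype cells, with Dnajb1 falling by 0.38, and 3 fell and 2 rose in CHIP null cells. Among these Hsp90aa1 fell by 0.48 and Hspb1, a small heat shock protein, rose by 0.29, a value that was -0.09 after median centring and 0.17 with the Feature Extraction log ratio. At 240 min 2 rose and 1 fell in wildtype and 1 rose and 1 fell in CHIP null cells, the fall being that of Dnajb1, by 0.20 and 0.19.

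For Tcp1 and Cct2 the dimmer probe differed from the brighter one at 240 min. The dimmer Tcp1 probe read 0.80, 0.69 and 0.74 on wildtype controls and 0.93, 1.07 and 1.03 on heated arrays. The CHIP null controls read 0.67, 0.74 and 0.79 and the heated arrays 0.99, 0.99 and 1.05. It rose by 0.27 ± 0.08 in wildtype (adjusted p = 0.010, over 19358 probes) and by 0.28 ± 0.08 in CHIP null cells (adjusted p = 0.0065), with no overlap in either, while the brighter probe differed by 0.01 and -0.07. The dimmer Cct2 probe read 1.09, 1.18 and 1.07 against 1.42, 1.37 and 1.30 in wildtype cells, a rise of 0.25 ± 0.07 (adjusted p = 0.012). In CHIP null cells it differed by 0.15 ± 0.07 (adjusted p = 0.10), and the brighter Cct2 probe by 0.03 and -0.01. The dimmer probes were 1.7 to 3.8 times their background for Tcp1 and 2.39 to 10.8 times for Cct2, against 11.5 to 64.4 and 58.4 to 298 times for the brighter ones. The array lists the same transcript accession for both Cct2 probes and both Vbp1 probes, and different ones for the Tcp1 probes.

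**Figure D4:**
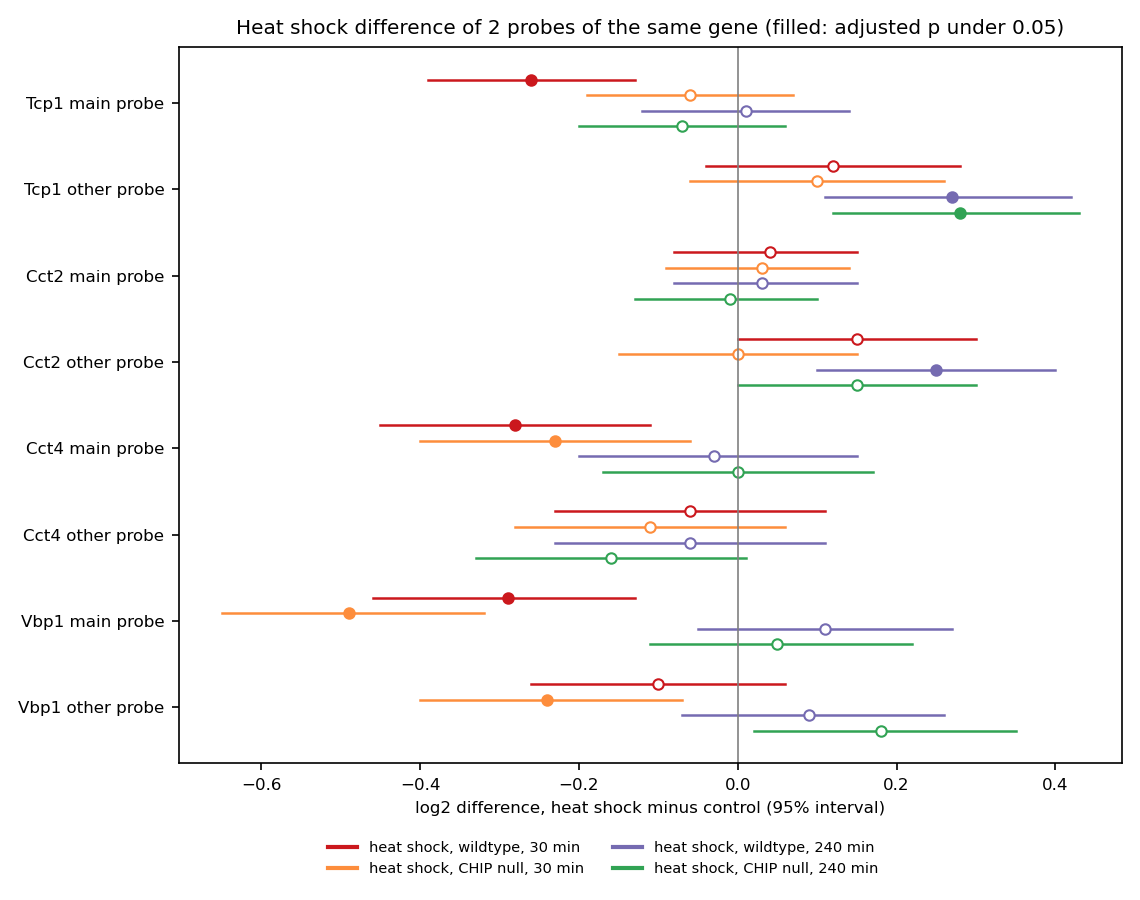
Log2 difference of heated minus control arrays with its 95% interval (horizontal axis) for the brighter (main) and dimmer (other) probe of Tcp1, Cct2, Cct4 and Vbp1 (vertical axis) in the 4 heat comparisons; filled points have an adjusted p under 0.05. Both Vbp1 probes fell in CHIP null cells labelled 30 min, by 0.49 and 0.24, whereas the 2 Tcp1 probes lie on opposite sides of 0 in wildtype cells at that label.

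The heat effect itself was compared between the labels, as the difference of differences. In CHIP null cells 2 of 10 members differed, where 2.37% of all genes did. These were Vbp1, 0.54 ± 0.11 more positive at 240 than at 30 min (adjusted p = 0.013), and Cct6a, 0.39 ± 0.11 (adjusted p = 0.047). The dimmer Vbp1 probe gave 0.42 (adjusted p = 0.048). In wildtype cells 0 of 10 differed (limma; 5 at an unadjusted p under 0.05), where 1.26% of all genes did, and Vbp1 was again the largest at 0.40 ± 0.11 (adjusted p = 0.072). With the slide as a block, Vbp1 was 0.51 (adjusted p = 0.22) and Cct6a 0.43 (adjusted p = 0.27) in CHIP null cells. After median centring they were 0.72 (adjusted p = 0.45) and 0.37 (adjusted p = 0.62). Cct6a also missed the threshold with an offset of 10 (0.44), the Feature Extraction log ratio (0.42) and no filter (0.39). Vbp1 lost the call at 0.46 without control replicate 3 labelled 30 min or control replicate 2 labelled 240 min. Cct6a lost it without 8 of 12 arrays in turn, where it ran from 0.33 to 0.40.

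CHIP null and wildtype cells differed in few members, and in those at the 30 min label. Among controls 1 of 10 was higher and 0 lower, where 14.7% of all genes were higher and 19.4% lower. That member was Cct6a, higher by 0.23 ± 0.07 (adjusted p = 0.018), with overlapping groups. It did not pass without wildtype control replicate 2 (0.22) or 3 (0.19) or CHIP null control replicate 1 (0.19) or 3 (0.17), nor with an offset of 10 (0.22), median centring (0.33), the Feature Extraction log ratio (0.20) or the slide as a block (0.29). That block gave calls for Cct4 (0.60, adjusted p = 0.0018) and Cct8 (0.41, adjusted p = 0.043) among controls, against 0.17 and 0.14 as reported. Among heated arrays 2 of 10 were higher and 0 lower, where 14.2% of all genes were higher and 13.3% lower. Tcp1 was higher by 0.35 ± 0.06 (adjusted p = 8.1e-05), all CHIP null arrays lying above all wildtype arrays. Cct4 was higher by 0.22 ± 0.08 (adjusted p = 0.049), with overlap, and by 0.36 without CHIP null heated replicate 1. It did not pass without wildtype heated replicate 1 (0.22) or 3 (0.17) or CHIP null heated replicate 2 (0.18) or 3 (0.13), nor with an offset of 10 (0.21), median centring (0.20), no filter (0.22) or the mean of the gene's probes (0.13).

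The Tcp1 difference passed without each of the 6 arrays in turn (0.30 to 0.38) and with the slide as a block (0.41, adjusted p = 0.015), but not after median centring (0.34, adjusted p = 0.12). Its dimmer probe gave 0.03 ± 0.08 (adjusted p = 0.83). Tcp1 and Stub1 both lie on chromosome 17 (GRCm38.p6, Tcp1 at 12916329 to 12925067, Stub1 at 25830634 to 25832919). Whether DNA near the Stub1 locus differed between the genotypes beyond Stub1 itself was not tested. The dimmer Cct2 probe was higher in CHIP null controls by 0.26 ± 0.07 (adjusted p = 0.0062), while the brighter one differed by 0.00 ± 0.06. After median centring the share of higher calls went from 43.1% to 66.9% among controls and from 51.8% to 29% among heated arrays at this label.

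Other features separated the genotypes at the same label. All 6 proliferation genes were higher in CHIP null cells, by a median of 0.53 in controls and 0.57 in heated cells, and all 12 macrophage markers tested were lower in the controls, by a median of 0.46. Xist, the RNA of the inactive X chromosome, was above background on none of the 6 wildtype arrays labelled 30 min and on all 18 other arrays. Vbp1 lies on the X chromosome, and in controls labelled 30 min it differed between genotypes by 0.01 ± 0.08 (adjusted p = 0.97). The part of these features in the members' genotype differences was not tested.

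At the 240 min label no member passed the test between genotypes. Among controls the count was 0 of 10 (limma; 0 at an unadjusted p under 0.05), where 4.8% of all genes were higher and 8.26% lower. Among heated arrays it was 0 of 10 (2 at an unadjusted p under 0.05), where 4.66% were higher and 8.3% lower, and median centring moved the share of higher calls from 36% to 8.11%. Those 2 were the prefoldin genes Vbp1, -0.19 ± 0.08 (adjusted p = 0.13), and Pfdn2, -0.17 ± 0.08 (adjusted p = 0.18).

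The effect of heat was not shown to differ between genotypes for any member. At 30 min 0 of 10 passed the interaction test (limma; 1 at an unadjusted p under 0.05), where 0.445% of all genes did. At 240 min 0 of 10 passed (0 at an unadjusted p under 0.05), where 0% of all genes did. The largest values at 30 min were 0.20 for Tcp1 (95% interval 0.02 to 0.38, adjusted p = 0.38) and -0.20 for Vbp1 (-0.43 to 0.04, adjusted p = 0.52). The fall of Tcp1 in wildtype cells and of Pfdn2, Cct6a and Cct8 in CHIP null cells was thus called in 1 genotype without a called difference between them.

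Control levels at the 2 labels are given as a description. In wildtype controls Cct6a had a mean ratio of 0.22 ± 0.08 (SD, n = 3) at 30 and 0.91 ± 0.03 at 240 min, and Cct8 of 0.63 ± 0.08 and 1.07 ± 0.05. Pfdn2 had 0.58 ± 0.08 and 0.90 ± 0.06, and Cct2 0.48 ± 0.08 and 0.77 ± 0.03. Cct7 went the other way, from 0.67 ± 0.02 to 0.54 ± 0.05, and Cct3 stayed within its spread, at 0.77 ± 0.13 and 0.73 ± 0.04. These controls were all at 37 °C and lay on different slides, so no test was made between labels. The wildtype controls also differed in other features. Xist was above background on none of those labelled 30 min and on all of those labelled 240 min. The mean log2 ratio of the proliferation genes was 0.26 to 0.40 at 30 and 0.79 to 0.81 at 240 min. That of the macrophage markers was -0.49 to -0.45 and -1.47 to -1.39. The part of these features in the levels was not tested.

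The members did not vary as a unit. Over the 24 arrays, with each gene centred within its time label, the correlation of a member with the mean of the other 9 was 0.86 for Cct8, 0.71 for Cct6a, 0.70 for Cct4, 0.64 for Pfdn2, 0.58 for Tcp1, 0.47 for Vbp1 and 0.37 for Cct3. It was 0.07 for Cct5, -0.06 for Cct2 and -0.40 for Cct7. The highest of the 45 pairs was Vbp1 with Pfdn2, at 0.89, the lowest Vbp1 with Cct7, at -0.65, and the median was 0.26. Arrays share slides and normalization, so these values are descriptions. Of 13363 other genes, Mtrex (r = 0.846), Agfg1 (0.83), Dnajc8 (0.828), Hypk (0.822) and Bzw1 (0.818) were the most like the members' mean over the 24 arrays, and Zfp608 (-0.822), Ptprz1 (-0.814) and the feature NAP050809-1 (-0.793) the least.

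The other prefoldin subunits were Pfdn1, Pfdn4, Pfdn5 and Pfdn6. Of these 4 tested, 0 changed in wildtype cells labelled 30 min (limma; 3 at an unadjusted p under 0.05), and 2 rose and 1 fell in CHIP null cells, Pfdn5 rising by 0.28 and Pfdn4 falling by 0.26. At 240 min 1 rose in wildtype, Pfdn6 by 0.20, and 3 rose in CHIP null cells, led by Pfdn1 at 0.38. Their median ran from 0.10 to 0.17 in the 4 comparisons as reported. After median centring it was 0.04 and 0.09 in wildtype and -0.19 and -0.05 in CHIP null cells at 30 and 240 min, with 0 rises, and Pfdn4 passed as lower at 240 min in CHIP null cells (-0.31, adjusted p = 0.032). Pfdn5 in CHIP null cells labelled 30 min was -0.05 after median centring and 0.00 with the Feature Extraction log ratio.

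The chaperonin's own cofactors and variants were tested for 4 of 7 genes. In wildtype cells Pdcl, a phosducin-like protein that works with CCT on G protein subunits, rose by 0.22 at 30 min and Txndc9 by 0.21 at 240 min. In CHIP null cells Pdcl3 fell by 0.26 at 30 min and Cct6b, a zeta form best known from testis, rose by 0.17 at 240 min. These were the calls among the 4 genes tested, and Pdcl2, Pdc and Cct8l1 were not tested. With median centring 0 of the 4 rose, and 3 at 30 min and 1 at 240 min passed as lower in CHIP null cells. Pdcl3 was 0.04 at 30 min there with the Feature Extraction log ratio.

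Of 7 genes of the prefoldin-like URI complex, 0 changed in wildtype cells labelled 30 min (1 at an unadjusted p under 0.05), 1 rose and 1 fell in CHIP null cells (Uxt by 0.16, Rpap3 by 0.17), and 3 rose and 1 fell in each genotype at 240 min. The largest rises there were Pdrg1 by 0.23 in wildtype and Uxt by 0.24 in CHIP null cells. Median centring left 0 rises in any heat comparison; 3 passed as lower in CHIP null cells at 30 min, and 1 in wildtype and 2 in CHIP null cells did at 240 min. Uri1, its scaffold, fell by 0.25 in wildtype and 0.26 in CHIP null cells there, and it passed under median centring and with the Feature Extraction log ratio too. Its 2 other probes gave -0.06 and -0.12 in wildtype and -0.06 and -0.18 in CHIP null cells, of which the last passed (adjusted p = 0.028).

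Actin and tubulin are the main clients of CCT. Of 14 tubulin genes tested, 1 and 2 rose at 30 min in wildtype and CHIP null cells and 4 and 4 at 240 min, and 0 fell in any heat comparison. Over all genes 6.77% and 22.6% were higher at 30 min and 18.8% and 24.5% at 240 min. Tubg1, gamma-tubulin, rose by 0.19 and 0.29 in wildtype cells at 30 and 240 min. The largest rises in CHIP null cells were Tubb3 by 0.26 at 30 min and Tubb4b by 0.27 at 240 min. After median centring 0 tubulin genes passed as higher in any heat comparison, and 2 passed as lower at 30 min and 1 at 240 min in CHIP null cells. With the Feature Extraction log ratio 1 rose and 4 fell in wildtype and 5 rose and 3 fell in CHIP null cells at 30 min, and 3 rose and 0 fell in each genotype at 240 min.

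The remaining clients and helpers were smaller lists. Of 5 actin genes tested, Actb rose by 0.30 in wildtype cells at 240 min and Actc1 fell by 0.61 in CHIP null cells at 30 min, and no other changed. Under median centring 0 actin genes rose and 2 passed as lower, in CHIP null cells at 30 min. With the Feature Extraction log ratio 2 fell in wildtype cells and 1 rose and 2 fell in CHIP null cells at 30 min. Actb in CHIP null cells at 30 min was 0.73 with that ratio and -0.56 after median centring. Its wildtype value at 240 min was 0.26 with that ratio and did not pass (adjusted p = 0.29). Of 10 other clients, 2 fell in wildtype and 1 in CHIP null cells at 30 min, Ccne1 falling by 0.24 in wildtype and Ppp2r2a by 0.19 in CHIP null cells, while 1 rose in wildtype and 3 rose and 1 fell in CHIP null cells at 240 min, with Hdac3 rising by 0.24 and 0.25 and Ccne1 falling by 0.21. After median centring 0 other clients rose, 8 of 10 passed as lower in CHIP null cells at 30 min and 5 at 240 min, and Hdac3 was -0.10 there at 240 min. With the Feature Extraction log ratio Hdac3 was 0.23 and 0.24 and passed in both genotypes at 240 min. Of 5 tubulin cofactors, 2 rose in CHIP null cells at 30 min (Tbcb by 0.19) and 3 in each genotype at 240 min (Tbcd by 0.21 in wildtype, Tbca by 0.21 in CHIP null cells). After median centring 0 tubulin cofactors rose in any heat comparison and 2 of 5 passed as lower in CHIP null cells at 30 min. With the Feature Extraction log ratio 2 rose in CHIP null cells at 30 min and 1 in wildtype cells at 240 min.

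The mitochondrial chaperonin is built from HSP60 and HSP10. Hspd1, the HSP60 ring subunit, read 0.30, 0.27 and 0.41 on wildtype controls labelled 30 min and -0.31, -0.35 and -0.28 on heated arrays. It fell by 0.64 and 0.81 in wildtype cells at 30 and 240 min and by 0.99 and 0.83 in CHIP null cells, where its adjusted p was 3.2e-06 and 1.3e-05. Hspe1, its partner HSP10, rose by 0.23 and 0.27 at 30 min in wildtype and CHIP null cells. The other Hspd1 probe fell too, by 0.40 to 0.55, and Hspd1 passed as lower in all 4 comparisons under median centring and with the Feature Extraction log ratio. Hspe1 turned to -0.16 after median centring in CHIP null cells labelled 30 min, and was 0.25 with the Feature Extraction log ratio (adjusted p = 0.0089). In wildtype cells at that label it passed under neither, at 0.12 after median centring (adjusted p = 0.6) and 0.19 with the Feature Extraction log ratio (adjusted p = 0.061).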

How the data were processed

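RNA from 24 mouse fibroblast samples was hybridised to 2-colour arrays, with sample RNA in Cy5 and a common reference in Cy3 on every array and no dye swap, per the labels. The authors deposited scanner intensity values for each array, made with Agilent Feature Extraction 9.1.3.1 per the file headers, together with that program's log10 ratio. The authors also deposited a table of processed log ratios, with centring not stated. Its column medians run from -0.05 to 0.02 and its direction follows Cy5 over Cy3. Multiplied by the natural logarithm of 2, its control columns match that program's log10 ratio. Its heated columns match the log10 ratio minus the mean of the controls of the same genotype and label. The table is therefore no separate measurement, and its values are given here after conversion to log2. It served only as an alternative, since its columns match the scanner files of the opposite time label.

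From the mean and background intensity, normexp background correction (offset 50) and loess within each array gave log2 ratios of Cy5 to Cy3 (limma 3.58.1, R 4.3.3). Control spots and 333 outlier spots were left out. Probes were named by accession (22951), symbol (6659), synonym (3109) or as in the file (8455). The filter kept probes whose Cy5 signal was well above background in every replicate of some group, and the brightest probe stood for its gene. The median Cy5 signal was 1.13 to 1.29 times background across arrays, and the number of arrays limits the precision. A linear model with 8 group means over all 24 arrays (16 residual and 11.7 prior degrees of freedom) gave 12 comparisons, two-sided, adjusted by Benjamini-Hochberg over 13488 genes, or over 19358 probes for single probes. The procedure was tested on simulated data.

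All members and their probes are named. Of each pathway list, but not of the marker lists, the largest rise and the largest fall past the test in a heat comparison are named, with the most and least alike genes. The members and lists were chosen with earlier results of these data known. Alternatives were a normexp offset of 10, median centring, the Feature Extraction log ratio, no filter, the mean of a gene's probes, the slide or replicate number as a block, the authors' table, and leaving out each array. The scaling of the further lists was added after seeing the data.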

Additional observations from a re-analysis of the deposited data

Results flagged for a closer look

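In CHIP null cells the heat effect of 2 of 10 members differed between the labelled times by the test of the difference itself. Over all genes tested 2.37% did. The heat difference of Vbp1 was 0.54 ± 0.11 (SE) more positive at 240 than at 30 min (log2 scale, adjusted p = 0.013, limma), being -0.49 at 30 and 0.05 at 240 min. That of Cct6a was 0.39 ± 0.11 more positive (adjusted p = 0.047), being -0.24 at 30 and 0.15 at 240 min. Neither passed with the slide as a block (adjusted p = 0.22 for Vbp1 and 0.27 for Cct6a) or after median centring (0.45 and 0.62). Leaving out 1 array at a time, Vbp1 kept the call in 10 of 12 runs and Cct6a in 4 of 12. The labelled times lay on different slides, so time and slide cannot be told apart.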

How the results depend on the processing

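Among heat differences called as reported or under an alternative, the sign turned for Cct2, Cct3, Cct5 and Cct7 in CHIP null cells labelled 30 min. Cct2 was -0.40 after median centring and -0.19 with the Feature Extraction log ratio. Cct3 was -0.37 and Cct5 -0.34 after median centring. Cct7 was -0.21 after median centring and -0.01 with the Feature Extraction log ratio. It was -0.01 in the authors' table too, which holds that same ratio less the controls and is no separate check. Counts of members called moved as follows. Lower with heat in wildtype cells at 30 min went from 3 to 0 under median centring, the mean of a gene's probes and the slide block. In CHIP null cells at 30 min, higher went from 1 to 0 with an offset of 10, median centring, the Feature Extraction log ratio and the slide block. Lower there went from 5 to 9 under median centring, where lower calls over all genes went from 1701 to 5212. The lower count went to 3 under the slide block and 4 with an offset of 10, the Feature Extraction log ratio, no filter or the mean of probes. Higher in wildtype cells at 240 min went from 0 to 1 with the mean of probes. For genotype at 30 min, higher among controls went from 1 to 0 (offset 10, Feature Extraction) or 2 (median centring, mean of probes, slide block), higher among heated arrays from 2 to 1 (offset 10, no filter, mean of probes) or 0 (median centring), and lower among heated arrays from 0 to 1 (offset 10). The CHIP null difference between times went from 2 to 1 (offset 10, Feature Extraction, no filter) or 0 (median centring, slide block). The cause was not tested.

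Leaving out each array gave 1 to 4 lower in wildtype cells at 30 min, 0 to 1 higher and 2 to 5 lower in CHIP null cells at 30 min, and 0 to 1 higher at 240 min. For genotype it gave 0 to 1 higher in controls and 1 to 2 higher and 0 to 1 lower in heated arrays at 30 min, and 0 to 1 lower in heated arrays at 240 min. The difference between times in CHIP null cells gave 0 to 3. Deviations of same-numbered arrays correlated above 0.1 in 3 of 18 pairs at 30 min, against 12 of 36 pairs of differently numbered arrays. At 240 min they did so in 7 of 18 pairs (highest r 0.57), against 8 of 36 (highest r 0.334). Pairing by replicate number was thus not seen at 30 min and is not settled at 240 min. With the replicate block 119 of 120 member values kept their call, Cct3 between heated genotypes at 30 min passed at 0.19 (adjusted p = 0.049), and calls over all genes for heat in wildtype cells at 30 min were 1999 against 1964.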
